A study of Oscheius tipulae with 48 samples.

Results

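Young adults of the nematode Oscheius tipulae that had passed through the dauer stage were compared with young adults that had grown directly. The comparison rests on 4 of the 48 libraries of the series, 2 of post-dauer young adults and 2 of direct young adults, chosen by their stage labels. All 4 were made from whole worms of strain CEW1. Direct young adults came from L1 larvae that had hatched and arrested in buffer and were then plated on OP50 bacteria at 20 °C. Post-dauer young adults were raised from dauer larvae harvested from liquid culture, and the labels give no growth temperature for them. Passage through dauer and the culture route therefore cannot be told apart. Replicates are labelled biological, with no word on whether cultures were separate. The p-values and SEs of limma rest on a spread between libraries estimated over 25 libraries of 12 larval, dauer and adult groups. They do not measure the spread of the 4 compared libraries alone. The other stages of the series, among them L3, L4 and mature adults raised along both routes, serve below as points of reference. Values are RPKM, reads per kilobase of gene scaled to the size of the library, for 14558 genes known by ID alone.

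Dauer is a non-feeding, stress-resistant larva that many nematodes form in place of the third larval stage when food is short or animals are crowded. When conditions improve it resumes feeding and goes on through L4 to a fertile adult. In Caenorhabditis elegans, adults that passed through dauer can look like other adults and still carry a different set of transcripts. CEW1 adults are mostly self-fertile hermaphrodites, which in nematodes make sperm before they make oocytes, and an adult's RNA is rich in germline and maternal transcripts and in products of the intestine that provision the eggs.

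The 4 libraries differed in quality, and post-dauer young adult replicate 1 stood apart. The 3374 genes with a median under 0.5 RPKM in the other 44 libraries, called silent here, had a median of 0 and 0.45 RPKM in the first and second young adult library, 5.36 RPKM in post-dauer young adult replicate 1 and 0.53 RPKM in post-dauer young adult replicate 2. The highest value in the other 44 libraries was 3.65 RPKM. The quartiles of the silent genes in post-dauer young adult replicate 1 were 3.43 and 8.07 RPKM. Values in this range cannot be told from the level of silent genes in that library. Only 26 genes were at 0 RPKM in post-dauer young adult replicate 1, against 2312 and 1051 in the young adults and 1173 in post-dauer young adult replicate 2. Its 10 most abundant genes took 15.7% of the summed RPKM, against 5.76% to 6.51% in the other 3 libraries. Young adult replicate 1 held the fewest detected genes, with 9892 genes at 1 RPKM or more against 11274 in young adult replicate 2. Low values move in steps of 1 read. The most frequent ratio of such values placed the depth of young adult replicate 1 above that of replicate 2 by a factor of 1.18, and that of young adult replicate 2 above that of post-dauer young adult replicate 2 by a factor of 1.34, with 11.6% and 15.7% of low genes near that ratio. Post-dauer young adult replicate 1 had too few low values for such a measure.

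Across all genes, the closest libraries were replicate 2 of either group. Young adult replicate 2 and post-dauer young adult replicate 2 differed by at least 1 on the log2(RPKM + 1) scale in 2106 genes, or 14.5%. Within groups the number was 4543 genes, or 31.2%, between the young adults and 8563 genes, or 58.8%, between the post-dauer young adults. Pearson correlations across genes were 0.941 for the replicate 2 pair, 0.827 within young adults and 0.596 within post-dauer young adults. These correlations describe libraries that share gene length and annotation, and genes are not independent replicates. The difference within either group was thus larger than that between the closest libraries of the 2 groups.

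**Figure D1:**
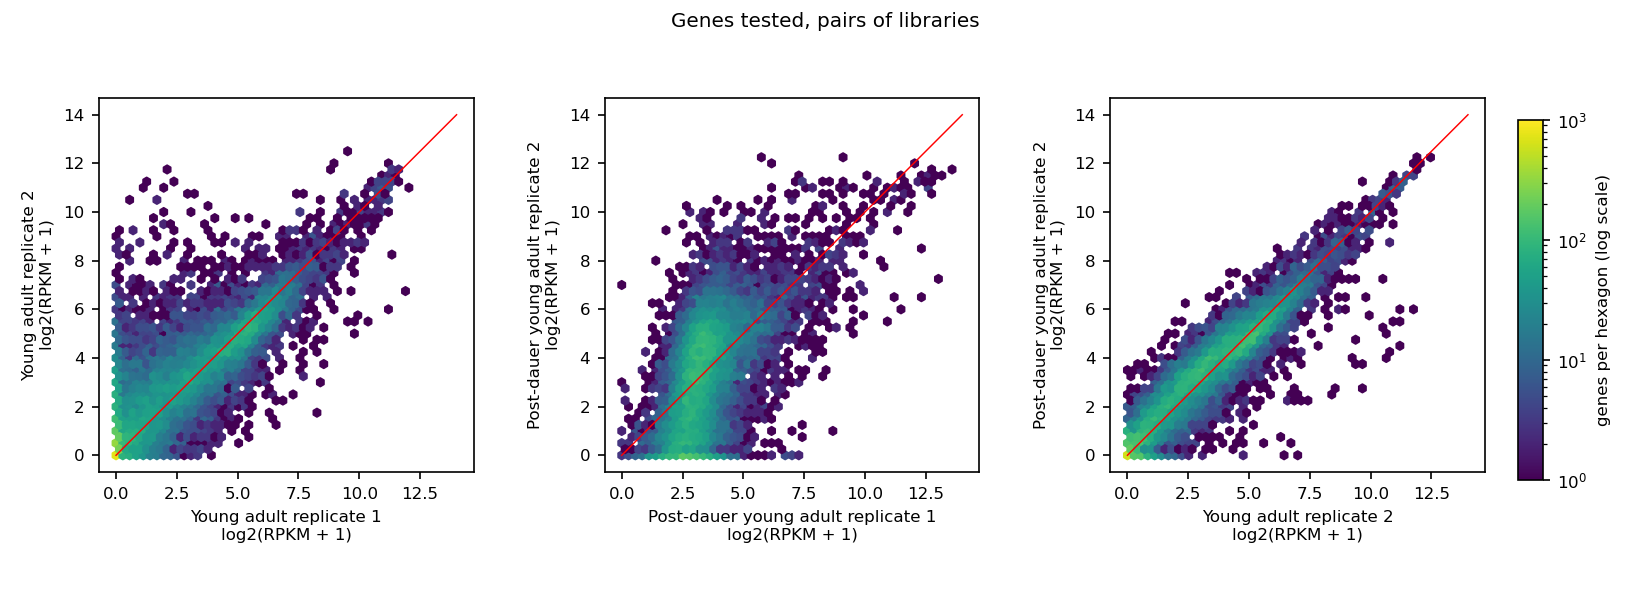
Each panel plots the 14446 genes tested in 1 library against another as log2(RPKM + 1), coloured by the number of genes per hexagon, with the line of equality in red. The young adults (left) and above all the post-dauer young adults (middle) scatter widely, few genes of post-dauer young adult replicate 1 lie near 0, and replicate 2 of both groups (right) lies close to the line with a group of genes far below it.

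A small group of genes was many times lower in post-dauer young adults, and 4 of them ranked between 42 and 86 by mean RPKM among the 14558 genes of direct young adults. Limma called 5 genes lower and 0 higher in post-dauer young adults among 14446 tested, 0.0346% and 0% of them, where a call needs a Benjamini-Hochberg adjusted p below 0.05 together with a change of 1 or more, up or down, in log2 units. Without adjustment, 3580 genes, or 24.8%, had a limma p under 0.05 in either direction. With only the 2 groups in the fit the number was 363 of 12358 genes, and with array weights 506 of 14446. These weights, lower for libraries of wider spread, were 0.193 in post-dauer and 0.517 in direct young adults. In the other libraries of the fit they ran from 0.155 to 7.17. Since whole worms were sequenced, fewer cells of a type and less RNA per cell cannot be told apart here.

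Oti_g07521 stood at 1326.36 RPKM in young adult replicate 1 and 2418.21 RPKM in replicate 2, against 9.85 and 21.9 RPKM in the post-dauer replicates 1 and 2. The groups did not overlap, and the higher post-dauer library was far below the lower direct one. The means were 1872 ± 772 and 15.9 ± 8.52 RPKM (SD, n = 2 each), a ratio of 118. The log2 change was -6.83 ± 0.90 (SE), and limma's Benjamini-Hochberg adjusted p was 0.00291. Oti_g12875 stood at 638.68 and 1737.96 RPKM in direct animals, against 9.02 and 15.84 RPKM after dauer. It showed the same order of libraries and again no overlap. Its means were 1188 ± 777 and 12.4 ± 4.82 RPKM (SD, n = 2 each), a ratio of 95.6. Its log2 change was -6.34 ± 0.79 (SE), and limma's Benjamini-Hochberg adjusted p was 0.00286. With only the 2 groups in the fit, limma's Benjamini-Hochberg adjusted p was 0.711 for both genes. In post-dauer young adult replicate 1 both genes lay little above the upper quartile of its silent genes, 8.07 RPKM. The file gives neither ID a name, so no role can be stated.

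The other 3 called genes repeated this picture at different levels. Of these, 2 were at 604.73 to 1708.94 RPKM in young adults and at 8.66 to 36.63 RPKM in post-dauer young adults, and the ratios of their means were 83.05 and 62.09. The fifth was lower throughout, at 26.88 and 33.24 RPKM in young adults and at 0.7 and 1.24 RPKM in post-dauer young adults, a ratio of 31.0. In log2 units these genes changed by -6.19 ± 0.89, -6.11 ± 1.03 and -3.98 ± 0.68 (SE). Limma gave them Benjamini-Hochberg adjusted p values of 0.00695, 0.0361 and 0.0361. Without post-dauer young adult replicate 1 none of the 5 was called, although Oti_g07521 and Oti_g12875 kept log2 changes of -6.29 and -5.97 (limma Benjamini-Hochberg adjusted p = 0.0761 for both). Without young adult replicate 2 the count was 212, with 184 higher and 28 lower, and without post-dauer young adult replicate 2 it was 5470, with 3553 higher and 1917 lower.

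The 4 called genes of highest level climbed from larva to adult along the direct route, and dauer larvae held them too. In all staged embryo libraries they were between 0 and 3.97 RPKM. They were at 4.01 to 12.08 RPKM in L3, 19.24 to 112.21 RPKM in L4 and 1720.13 to 9926.22 RPKM in mature adults. Mixed worms, which are not staged, held 2004.62 to 5078.74 RPKM. Along the post-dauer route the same 4 genes were at 0.43 to 3.61 RPKM in L3. They were at 2.08 to 13.79 RPKM in post-dauer L4 and at 0.95 to 20.02 RPKM in post-dauer mature adults, below every direct L4 and adult library of the same gene except for 1 gene whose post-dauer mature adults reached 20.02 RPKM against 19.24 RPKM in a direct L4 library. Dauer larvae themselves held 18.07 to 309.23 RPKM, more than any post-dauer L3 library. Adult males, hand-picked from the him-1(sy527) mutant, held 2.37 to 8.42 RPKM.

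Mature adults share no library with the young adults and showed the same direction for these genes. Oti_g07521 was at 8550.61 and 2956.41 RPKM in direct mature adults and at 0.99 and 10.13 RPKM in post-dauer mature adults. It was lower in the post-dauer animals by 10.06 ± 0.90 in log2 units (SE, limma with Benjamini-Hochberg adjusted p = 5.07e-06). Oti_g12875 was at 9839.68 and 3026.23 RPKM in direct and at 1.44 and 4.7 RPKM in post-dauer mature adults. It fell by 10.52 ± 0.79 in log2 units (SE, limma with Benjamini-Hochberg adjusted p = 9.57e-07). In L4 the estimates were smaller than in young adults. Limma's test of that difference passed for neither gene (Benjamini-Hochberg adjusted p = 0.278 for Oti_g07521 and 0.411 for Oti_g12875). Oti_g12875 changed by -4.46 ± 0.79 (SE, limma Benjamini-Hochberg adjusted p = 0.012), while Oti_g07521 had a log2 difference of -3.78 ± 0.90 (SE) that did not pass (limma Benjamini-Hochberg adjusted p = 0.0513). All 5 genes passed limma as lower in post-dauer mature adults, where 107 of 14446 genes, or 0.741%, were lower.

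No gene passed the test as higher in post-dauer young adults, so the genes that stood furthest apart are given by their values. Oti_g02519 was at 1.14 and 0.34 RPKM in direct replicates 1 and 2, against 26.02 and 12.19 RPKM in post-dauer replicates 1 and 2. Oti_g08406 was at 11.78 and 4.65 RPKM in young adults and at 106.55 and 76.38 RPKM in post-dauer young adults. In neither gene did the groups overlap, and in post-dauer young adult replicate 1 both lay above the upper quartile of the silent genes of that library, which was 8.07 RPKM. Their log2 differences were 3.48 ± 0.80 and 3.42 ± 0.94 (SE), and limma's Benjamini-Hochberg adjusted p was 0.179 for both.

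Both of these genes were also higher in post-dauer than in direct mature adults. Oti_g02519 held 54.07 and 14.34 RPKM in post-dauer mature adults, after 1.4 and 2.12 RPKM in L3 and an uneven 48.02 and 3.38 RPKM in L4 of that route. It was at 5.11 and 2.37 RPKM in direct L3, 0.26 and 0.35 RPKM in direct L4 and 0.25 and 0 RPKM in direct mature adults. Oti_g08406 held 150.67 and 50.03 RPKM in post-dauer mature adults, after 40.53 and 59.74 RPKM in L3 and 462.18 and 57.18 RPKM in L4, so all its post-dauer libraries were above all direct ones. Its direct counterparts were 2.32 and 10.32 RPKM in L3, 0.88 and 1.11 RPKM in L4 and, for mature adults, 1.3 and 0.37 RPKM. Between post-dauer and direct mature adults the log2 changes of the 2 genes were 4.70 ± 0.80 and 5.63 ± 0.94 (SE, limma Benjamini-Hochberg adjusted p = 0.00266 and 0.00246). Dauer larvae themselves held 1.65 and 2.15 RPKM of Oti_g02519 and 4.77 and 10.6 RPKM of Oti_g08406, below the levels of both genes in post-dauer young and mature adults.

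**Figure D2:**
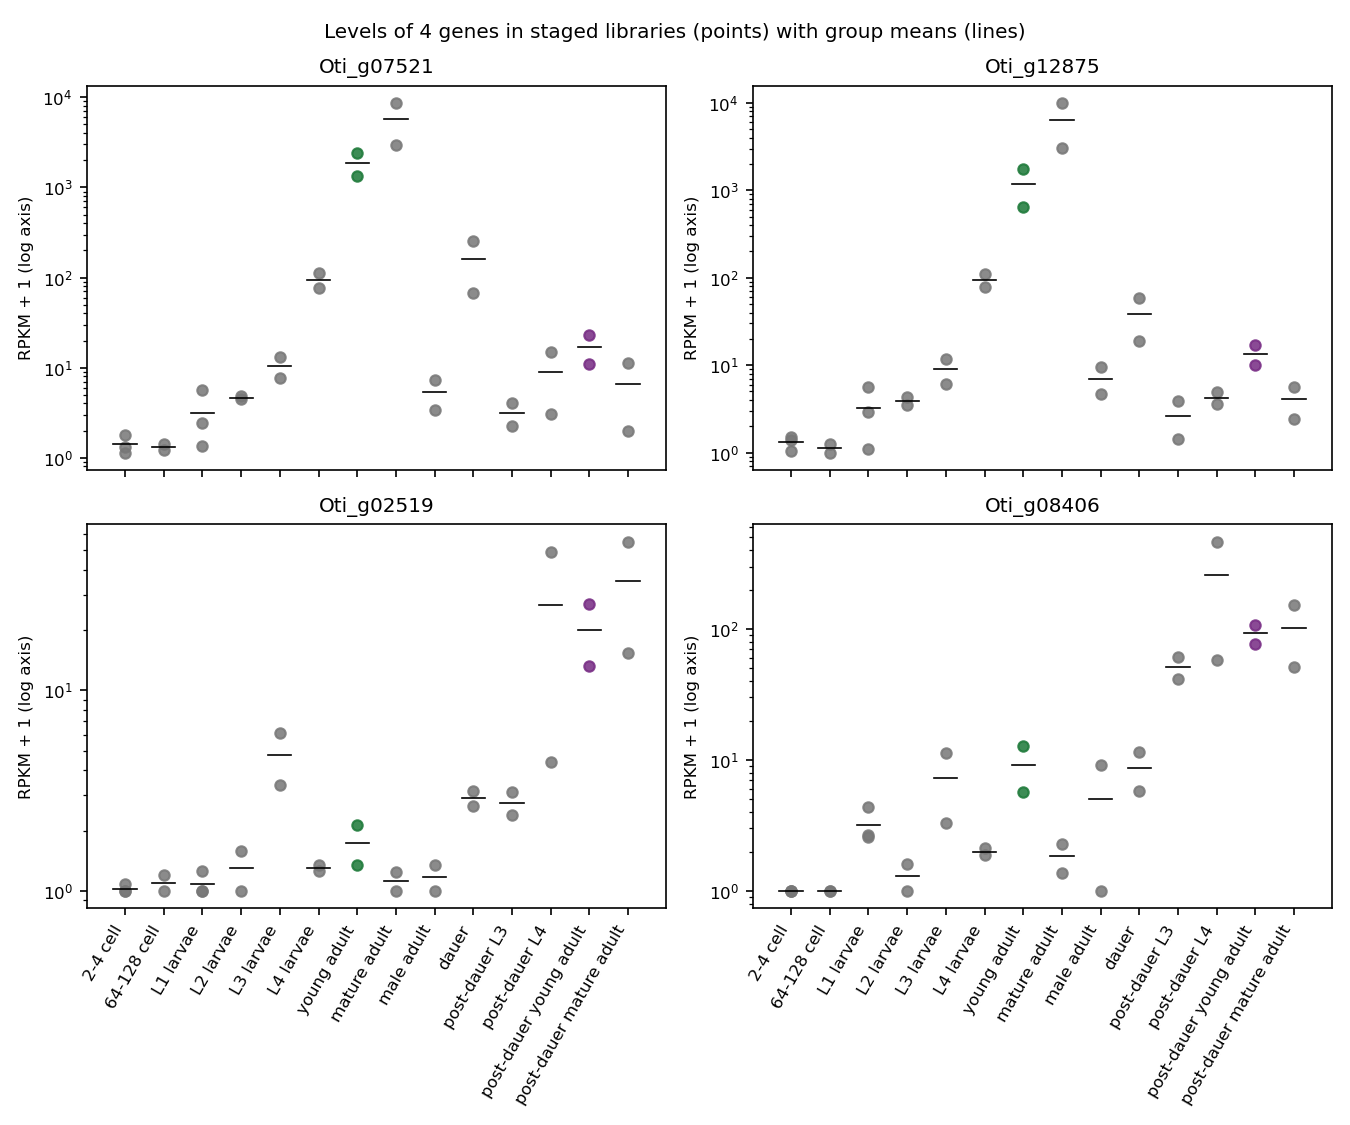
RPKM + 1 on a log axis for 4 genes in embryo, larval, dauer and adult groups, with a point per library, a line at each group mean, young adults in green and post-dauer young adults in purple. Oti_g07521 and Oti_g12875 reach 638.68 RPKM or more in direct young and mature adults and 21.9 RPKM at most in post-dauer ones, and Oti_g02519 and Oti_g08406 lie higher in post-dauer than in direct adults.

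Beyond the called genes, the direction of the difference depended on the level of the gene. Both post-dauer young adults were above both young adults in 4028 of 14558 genes, or 27.7%, and below both in 2230, or 15.3%. Among 7331 genes with a mean above 1 and up to 10 RPKM over the 4 libraries, 43.0% were above and 1.36% below. Among 5860 genes above 10 and up to 100 RPKM, 11.02% were above and 33.3% below, and among 709 genes above 100 RPKM the shares were 8.46% and 24.0%. Silent genes were also raised in post-dauer young adult replicate 1, and the part of this in the surplus among low genes was not tested. With the silent median of each library subtracted, 1548 genes were above and 2767 below, and after quantile normalization 1984 and 2680. Between 1 and 10 RPKM more genes stayed above than below, with 14.1% against 6.97% after subtraction and 1069 against 791 genes after quantile normalization. The median log2 change of all genes moved with these settings, from 0.59 as deposited to -0.18 and 0.00.

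A stricter set of genes was then described, those whose groups stood at least 1 apart on the log2(RPKM + 1) scale with a mean of at least 10 RPKM in the higher group. This threshold was set with the values known. It gave 91 genes lower in post-dauer young adults, 0.625% of all genes, and 126 genes higher, 0.866%. The 91 lower genes had a median of 87.2 and 86.5 RPKM in direct replicates 1 and 2, and of 7.04 and 21.5 RPKM in post-dauer replicates 1 and 2. The 7.04 RPKM lay between the quartiles of the silent genes of that library, 3.43 and 8.07 RPKM. The 126 higher genes had a median of 2.37 and 3.93 RPKM in young adults and of 20.6 and 12.8 RPKM in post-dauer young adults. After quantile normalization 104 genes were lower and 84 higher, of which 66 were among the 91 and 59 among the 126. After subtraction of the silent median 124 were lower and 77 higher, 91 and 74 of them shared. Subtraction takes more from post-dauer young adult replicate 1 than from any young adult library, so it favours the lower genes by construction.

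The other stages showed where these genes are usually most abundant. Of the 91 lower genes, 51 had their highest group mean in direct mature adults and 33 in 2-4 cell embryos, 92.3% together against 25.3% of the 6003 genes with a mean of at least 10 RPKM in young adults. Of the 126 higher genes, 0 peaked in either of these groups. Post-dauer L3, L4 or mature adults held the peak of 68 of the 126, or 53.97% against 18.7% of the 6997 genes with a mean of at least 10 RPKM in post-dauer young adults. Dauer larvae held the peak of another 18, or 14.3% against 6.59%. L2 and L3 larvae were the peak of 13 and 12 of the 126, or 10.3% and 9.52%. Among 6569 genes with a mean of at least 10 RPKM over the 4 libraries the shares were 7.63% and 6.65%. These shares are a description, without a test.

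**Figure D3:**
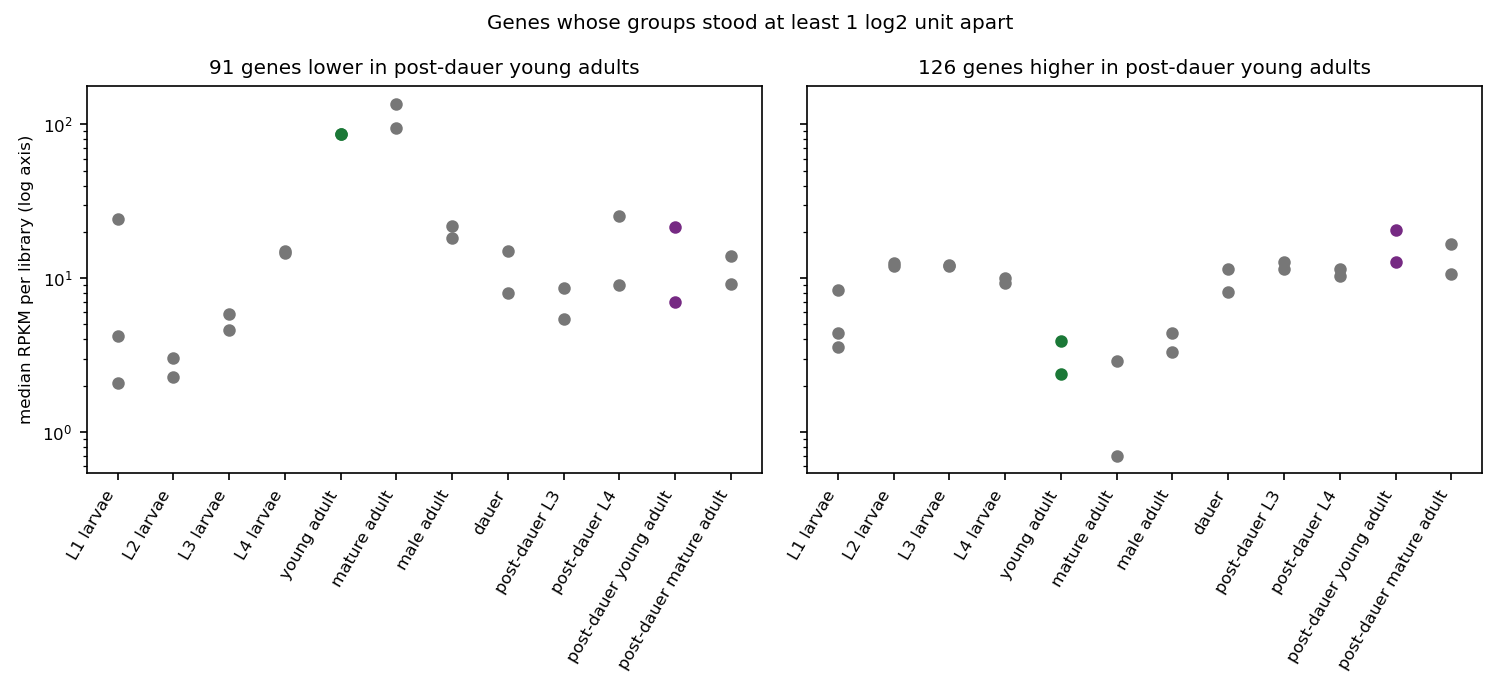
Median RPKM on a log axis, per library, of the 91 genes lower (left) and the 126 genes higher (right) in post-dauer young adults (purple) than in young adults (green). The lower genes reach 94.3 and 136 RPKM in direct mature adults and 9.23 and 14.01 RPKM in post-dauer mature adults. The higher genes lie at 10.4 to 20.6 RPKM in post-dauer L4 and adult libraries. They lie at similar levels in direct larvae, with 12.035 and 12.215 RPKM in L3 and 10.07 and 9.325 RPKM in L4. In direct mature adults they lie at 0.7 and 2.9 RPKM.

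The difference seen in young adults was also present in mature adults, in libraries that had no part in the choice of genes. The limma calls there use a spread to which the young adult libraries of both routes contributed. The counts of calls are therefore not independent of that choice. Of the 91 lower genes, 90 were lower in both post-dauer than in both direct mature adults, and 40 passed limma as lower. The shares were 42.9% and 1.37% of the 6003 genes of at least 10 RPKM in young adults, and 21.4% and 0.741% of all genes. The median log2 change of the 91 in mature adults was -2.38, beside -0.21 for the 6003. Of the 126 higher genes, 93 were higher in both post-dauer mature adults, and 48 passed limma as higher. The shares were 36.5% and 5.86% of the 6997 genes of at least 10 RPKM in post-dauer young adults, and 35.9% and 3.99% of all genes. The median log2 change of the 126 there was 1.74, beside 0.15 for the 6997. The count of 40 was 23 without mature adult replicate 1 and 24 without post-dauer mature adult replicate 1. The count of 48 was 6 without mature adult replicate 1, 7 and 25 without post-dauer mature adult replicates 1 and 2, and 22 after quantile normalization.

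In L3 and L4 the 91 genes leaned the other way, with a median log2 difference of 0.46 in either stage and 57 of 91 above 0. The 126 genes had a median of 0.47 in L4 and of -0.02 in L3. Whether the sets differ between stages was not tested. In L4, 17 of the 91 genes were lower in both post-dauer libraries and 33 higher, against 25.3% and 28.5% of all genes, and limma called 1 lower, against 0.651% of all genes. Of the 126 genes, 52 were higher and 36 lower in both post-dauer L4 libraries, with 11 called higher and 2 lower, against 0.228% and 0.651% of all genes. In L3, 10 of the 91 were lower and 28 higher in both post-dauer libraries, and 13 of the 126 were higher and 13 lower, against 16.2% lower and 15.1% higher of all genes. Limma called 0 of either set and 0 of all genes there, with 279 genes at an unadjusted p under 0.05. Across 14446 genes the Spearman correlation of the log2 change in young adults was 0.361 with that in mature adults, 0.112 with that in L4 and 0.214 with that in L3. These contrasts share no library but share gene length and annotation, and the silent genes had a median of 2.53 RPKM in the first and 0.25 RPKM in the second post-dauer L3 library, and of 1.42 and 0.42 RPKM in those of post-dauer L4. With the silent medians subtracted the values were 0.401, 0.044 and 0.036.

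**Figure D4:**
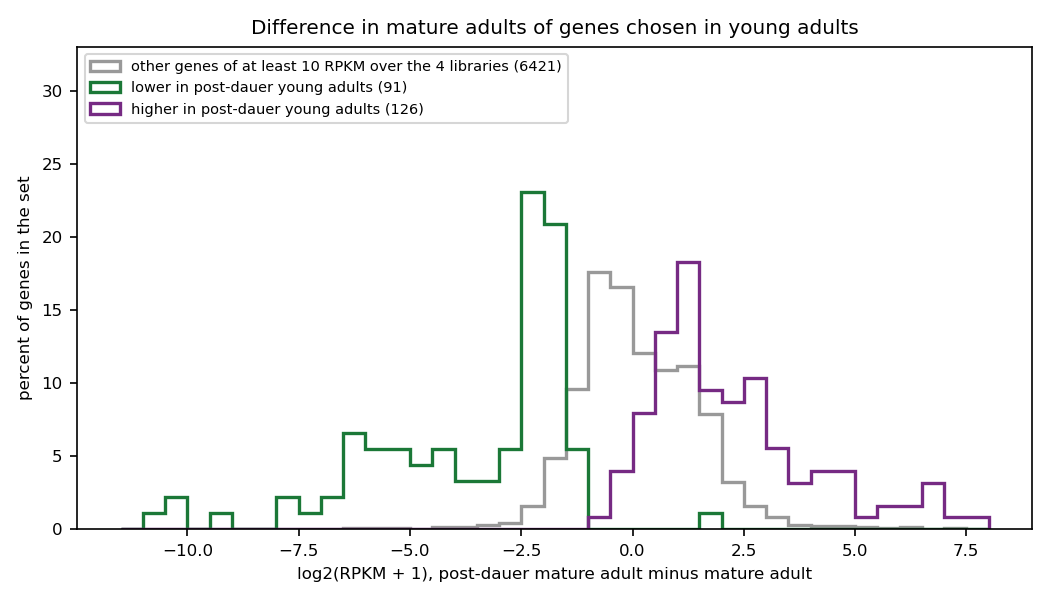
Histograms of the log2(RPKM + 1) difference between post-dauer and direct mature adults, as percent of the genes in each set, for the 91 genes lower and the 126 genes higher in post-dauer young adults and for other genes with a mean of at least 10 RPKM over the 4 libraries. The lower genes lie at a median of -2.38 with 90 of 91 below 0, and the higher genes at a median of 1.74 with 120 of 126 above 0.

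The difference between stages was tested directly with interaction terms. Limma called 0 genes whose post-dauer effect differed between young and mature adults and 0 between young adults and L3, with 1113 and 1444 genes at an unadjusted p under 0.05. Between young adults and L4 it called 182, or 1.26% of genes, of which 181 (1.25%) had the larger value in young adults and 1 (0.00692%) the smaller. The F-test over the 3 interactions passed for 21 genes, or 0.145%. Among these were Oti_g07521 and Oti_g12875 (limma F-test, Benjamini-Hochberg adjusted p = 0.0294 and 0.0229). The other genes called in young adults had values of 0.0229, 0.0517 and 0.0612 in this F-test. The 181 genes had a median of 18.1 and 18.3 RPKM in direct L4 and of 1.8 and 1.86 RPKM in post-dauer L4. In young adult replicates 1 and 2 their median was 0.35 and 3.48 RPKM, and in post-dauer young adult replicates 1 and 2 it was 6.14 and 8.49 RPKM. Limma called 65 of them lower in post-dauer L4, against 0.651% of all genes. That contrast took part in their choice, so the count is not independent of it. The 182 became 1 and 716 without young adult replicates 1 and 2, 102 and 1736 without post-dauer young adult replicates 1 and 2, and 12 with the silent median subtracted. The 21 became 35, 559, 41 and 1044 without these 4 libraries in the same order. Without young adult replicate 2 the interactions with L3 and mature adults gave 9 and 132 genes, and without post-dauer young adult replicate 2 they gave 914 and 966.

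Gene lists chosen on other libraries placed each of the 4 libraries along the life cycle. Each list held the 200 genes that separated one stage most widely from another, chosen without the young adults. Genes of mature adults over L4 had a median of 60.9 and 71.6 RPKM in direct replicates 1 and 2, and of 8.19 and 26.9 RPKM in post-dauer replicates 1 and 2. The 8.19 RPKM lay next to the upper quartile of the silent genes of that library, 8.07 RPKM. The medians of the 2 groups did not overlap, and 159 of the 200 genes were lower in both post-dauer libraries. The share was 15.3% of all genes and 33.3% of genes above 10 and up to 100 RPKM over the 4 libraries. The median log2 change of the list was -2.01, beside 0.59 for all genes. The 5 genes called lower above were all among the 200, against 0.0346% of all genes tested. In replicate 2 of both groups alone the median difference of this list was -1.09, beside 0.07 for all genes, and without post-dauer young adult replicate 1 the median log2 change was -1.18.

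Genes abundant in 2-4 cell embryos over 32-64 cell embryos, a list that includes maternal transcripts loaded into eggs, had a median of 44.5 and 37.7 RPKM in young adults and of 7.83 and 24.9 RPKM in post-dauer young adults. The 7.83 RPKM lay below the upper quartile of the silent genes of that library, 8.07 RPKM. Of the 200, 182 were lower in both post-dauer libraries and 0 higher in both, against 15.3% and 27.7% of all genes. Of genes above 10 and up to 100 RPKM over the 4 libraries, the shares were 33.3% and 11.02%. Limma called 0 of the list, and its median log2 change was -1.49. In replicate 2 of both groups alone the median difference of the list was -0.61, and without post-dauer young adult replicate 1 its median log2 change was -0.75. Genes of later embryos over 2-4 cell embryos stood at 12.1 and 11.1 RPKM in young adults and at 11.2 and 17.4 RPKM in post-dauer young adults, and limma called 0. Their median log2 change of 0.30 was below that of all genes and became -0.28 with the silent medians subtracted, and 0.50 and 0.03 without post-dauer young adult replicates 1 and 2.

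The lists of L4 and L3 larvae spread widely within groups. Genes of L4 over mature adults had a median of 0.59 and 8.53 RPKM in young adults and of 7.18 and 20.7 RPKM in post-dauer young adults, with 0 called. Young adult replicate 2 lay above post-dauer young adult replicate 1, so the groups overlapped. The median log2 change was 1.68 with all libraries, 0.41 and 2.97 without young adult replicates 1 and 2, 0.90 without post-dauer young adult replicate 2 and 1.23 in replicate 2 of both groups alone. Genes of L3 over dauer ranged from 3.49 RPKM in young adult replicate 1 to 69.6 RPKM in young adult replicate 2, and were at 10.6 and 87.0 RPKM in post-dauer young adults. Their median log2 change of 1.21 became -0.69 and 2.85 without young adult replicates 1 and 2, and 2.36 and -0.26 without post-dauer young adult replicates 1 and 2.

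Genes of adult males over mature adults and L4, a list in which sex and the him-1(sy527) genotype are not separated, differed within both groups. Their median was 0 and 5.82 RPKM in direct replicates 1 and 2 and 7.74 and 2.71 RPKM in post-dauer replicates 1 and 2, against 63.6 and 71.5 RPKM in males. The groups overlapped, and limma called 0 of the 200. Of this list 113 genes are also silent genes, whose level was raised in post-dauer young adult replicate 1. The median log2 change was 0.99 with all libraries, 0.22 after quantile normalization, -0.12 and 2.10 without young adult replicates 1 and 2, 0.38 and 1.52 without post-dauer young adult replicates 1 and 2, and -0.67 in replicate 2 of both groups alone.

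Genes of dauer larvae over L3 were at 1.69 and 1.02 RPKM in young adults and at 25.0 and 1.71 RPKM in post-dauer young adult replicates 1 and 2. Only post-dauer young adult replicate 1 was high, and 85 of the 200 genes are silent genes. The median log2 change of 1.71 became 0.17 without that library and 3.19 without post-dauer young adult replicate 2. Limma called 0 of the list higher and 2 lower, against 0% and 0.0346% of all genes tested.

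Lists that separated post-dauer from direct animals at other stages described the higher genes further. Genes of post-dauer over direct L4 were at 11.4 and 9.24 RPKM in young adults and at 37.1 and 19.8 RPKM in post-dauer young adults. Of the 200, 113 were higher in both post-dauer libraries, against 27.7% of all genes. Genes of post-dauer over direct mature adults were at 11.8 and 3.78 RPKM in young adults and at 31.3 and 10.9 RPKM in post-dauer young adults, with 95 of 200 higher in both. Their median log2 changes were 1.47 and 1.48, and in replicate 2 of both groups alone 1.12 and 1.25, with 0 called in either list. The 1.48 became 0.75 without young adult replicate 2, when the median of all genes was 0.73, and 0.74 and 2.31 without post-dauer young adult replicates 1 and 2. These 2 lists share 87 genes.

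Genes of direct over post-dauer mature adults were at 35.6 and 53.7 RPKM in young adults and at 7.36 and 19.3 RPKM in post-dauer young adults. The 7.36 RPKM lay below the upper quartile of the silent genes of that library, 8.07 RPKM. Of the 200, 136 were lower in both, against 15.3% of all genes, and 5 were called, against 0.0346%. Of genes above 10 and up to 100 RPKM over the 4 libraries, 33.3% were lower in both. The median log2 change of the list was -1.69, and -1.08 without post-dauer young adult replicate 1. This list shares 120 genes with that of mature adults over L4. Genes of post-dauer over direct L3 had a median log2 change of -0.97, which became -0.63 without post-dauer young adult replicate 1. Genes of direct over post-dauer L3 had one of 0.71, which became -0.02 and 1.33 without young adult replicates 1 and 2. Limma called 0 in either list. Genes of direct over post-dauer L4 had a median log2 change of 1.46, with 2 called lower, against 0.0346% of all genes tested. It became 0.03 and 2.703 without young adult replicates 1 and 2, and 0.60 without post-dauer young adult replicate 2. Genes of L1 over L2 had a median log2 change of -1.16, with 0 called, which became -0.54 and -1.76 without post-dauer young adult replicates 1 and 2.

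The 200 genes of least spread over the other worm libraries served as a check of scale. Their median was 33.2 and 29.6 RPKM in young adults, 12.625 RPKM in post-dauer young adult replicate 1 and 27.2 RPKM in post-dauer young adult replicate 2. For 100 of the 200 genes both post-dauer libraries were below both young adults, and limma called 0. The share was 15.3% of all genes and 33.3% of genes above 10 and up to 100 RPKM over the 4 libraries. The median log2 change of the 200 steady genes, -0.64, became -0.25 and -1.08 without post-dauer young adult replicates 1 and 2. Post-dauer young adult replicate 1 thus lay lower than the other 3 in genes of steady level and higher in silent genes. The part of this in each list's difference was not tested.

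**Figure D5:**
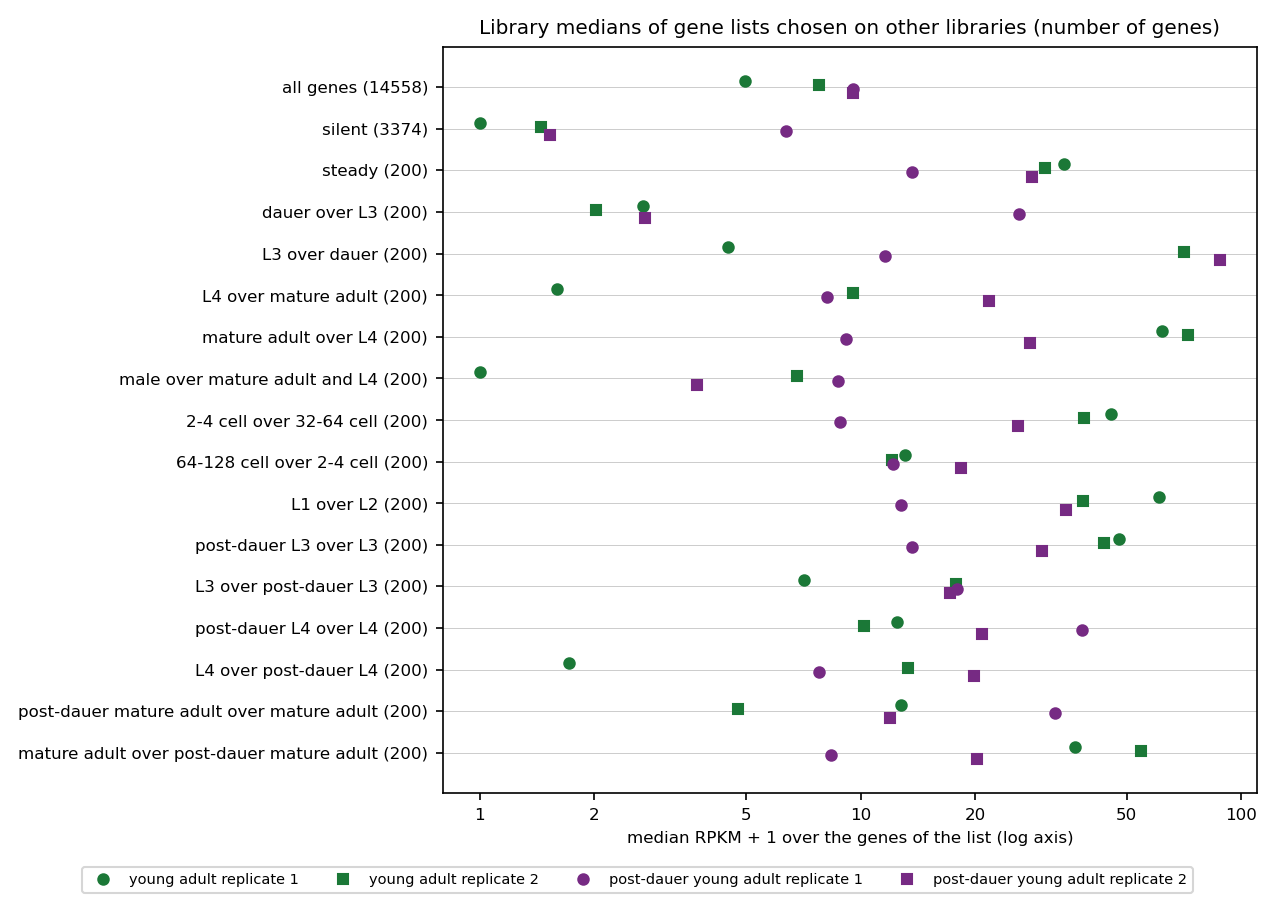
Median RPKM + 1 on a log axis of all genes and of each list in the 4 libraries, with young adults in green, post-dauer young adults in purple, replicate 1 as circles and replicate 2 as squares. Both purple points lie left of both green points for genes of mature adults over L4 and of 2-4 over 32-64 cells, and right of both for genes of post-dauer over direct L4.

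Replicate 2 of both groups, the closest pair of libraries, differed in opposite directions for small and large differences. Among 7194 genes with at least 10 RPKM in either of these libraries, 774 were higher and 445 lower in the post-dauer library by at least 1 on the log2(RPKM + 1) scale. Of the 445, 137 had their highest group mean in males and 126 in direct mature adults, groups that held the peak of 7.81% and 8.09% of the 7194. At the far end, 33 were lower in the post-dauer library by at least 4 on that scale and 0 were higher by as much. Of these 33 genes, 28 had their highest group mean elsewhere in direct mature adults. At a difference of at least 2, 120 genes were lower, of which 70 peaked in mature adults and 29 in males, and 80 were higher, of which 65 peaked in a post-dauer group, as did 17.8% of the 7194. With 1 library on each side this is a description without a test.

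The order of likeness also differed between libraries. Over 14558 genes, young adult replicate 2 had its highest Spearman correlation with direct mature adults, at 0.964, ahead of post-dauer L4 at 0.913 and direct L4 at 0.886. Post-dauer young adult replicate 2 correlated at 0.933 with post-dauer L4, 0.927 with direct L4, 0.913 with post-dauer L3, 0.911 with direct mature adults and 0.905 with post-dauer mature adults. Young adult replicate 1 correlated at 0.870 with post-dauer mature adults, 0.862 with direct mature adults and 0.858 with L1. Post-dauer young adult replicate 1 reached 0.699 with dauer and 0.673 with post-dauer L4, and 0.644 or less with every other worm group.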

How the data were processed

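The authors deposited 1 table of RPKM values per gene and library; no header states this unit, and library sums of 371389 to 860569 with decimals do not contradict it. Per the submitters' processing notes, HTSeq 2.0.2, StringTie 2.2.0, STAR 2.7.10 and Bowtie2 2.4.2 were used, with no role given. Which genome build they used is not given in the sources used here. RNA was rRNA-depleted total RNA, per the labels' protocols. The file pairs no ID with a name, so marker genes could not be checked and at most 2 IDs per direction are printed. Reads shared between near-identical or overlapping genes cannot be told apart.

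Log2(RPKM + 1) was fitted over 25 libraries of 12 larval, dauer and adult groups, using limma 3.58.1 (R 4.3.3; trended, robust moderation). For L2, L3 and L4 the table numbers its replicates differently from the sample labels, so these libraries entered by group. Genes with at least 1 RPKM in 2 libraries were kept, 14446 in all. Such fold changes understate those of low genes. A call needed a Benjamini-Hochberg adjusted p below 0.05 and a change of 1 or more, up or down, in log2 units. Named genes are the 2 called genes of largest change in each direction whose groups do not overlap and whose higher mean is at least 10 RPKM, and failing these the genes of widest gap. Each list holds the 200 genes of widest gap between the lowest library of one group and the highest of the other, with a mean of at least 10 RPKM. Members, lists and tests were chosen with earlier results of these data known. No set test was run. The functions were tested on simulated data, where all calls of changed genes had the right sign and the share of false calls was somewhat above the nominal level. The simulation gave every library of a gene the same spread and no shift between replicates. Its share of false calls therefore need not hold for these libraries. Read depth is known only relative to other libraries, and 2 libraries per group limit the precision.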

Additional observations from a re-analysis of the deposited data

Results flagged for a closer look

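In a test of the difference itself, the number of genes whose post-dauer effect differed between stages depended on the settings. Limma called 182 genes whose effect in young adults differed from that in L4, and 21 genes by the F-test over L3, L4 and mature adults, both at a Benjamini-Hochberg adjusted p under 0.05. After quantile normalization the counts were 10 and 17, and with the silent median subtracted 12 and 21. With a pseudocount of 0.1 they were 0 and 0, and with array weights 0 and 883. Post-dauer young adult replicate 1, with its silent genes at a median of 5.36 RPKM, and young adult replicate 1, with 2312 genes at 0 RPKM, both entered these tests, and their part in the counts was not tested. Without young adult replicates 1 and 2 the counts were 1 and 716 for L4 and 35 and 559 for the F-test. Without post-dauer young adult replicates 1 and 2 they were 102 and 1736 for L4 and 41 and 1044 for the F-test.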

How the results depend on the processing

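The count of 5 genes called between post-dauer and direct young adults was 30 after quantile normalization (1 higher, 29 lower), 32 with the silent median of each library subtracted (3 and 29), 28 with a pseudocount of 10 (3 and 25), 13 without L1, dauer, post-dauer L3 and post-dauer L4 replicate 1, and 1, not among the 5, without replicate 1 of both groups, an alternative chosen after seeing the data. All 5 genes were among the calls of the first 4 of these settings. The count was 0 with a pseudocount of 0.1, with array weights and with only the 2 groups in the fit, with 3271, 506 and 363 genes at an unadjusted p under 0.05. Leaving out 1 library gave 0 to 5470 calls. The log2 change of Oti_g07521 ranged from -7.37 to -6.16 over 16 settings and that of Oti_g12875 from -7.06 to -5.59, and each stayed called in 11.

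The interaction with L3, 0 genes, was 3 with the silent median subtracted and 15 with a pseudocount of 10, and 0 to 914 without 1 library. The interaction with L4, 182 genes, was 10 after quantile normalization, 12 with the silent median subtracted, 0 with a pseudocount of 0.1, 292 with a pseudocount of 10, 0 with array weights and 1 without replicate 1 of both groups, and 1 to 1736 without 1 library. The interaction with mature adults, 0 genes, was 0 to 966 without 1 library. The F-test, 21 genes, gave 0 and 224 with pseudocounts of 0.1 and 10, 9 with a filter of 10 RPKM, 883 with array weights, 301 without the 4 replicate 1 libraries of other groups and 66 without replicate 1 of both groups, and 35 to 1044 without 1 library. The causes were not tested.

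Genes above both young adults numbered 1548 with the silent median subtracted and 1984 after quantile normalization, against 4028. The set of 126 higher genes became 77 with the silent median subtracted. Of those called in mature adults, 48 became 22 after quantile normalization, 6 and 45 without mature adult replicates 1 and 2, and 7 and 25 without post-dauer mature adult replicates 1 and 2. The 40 lower genes became 23, 37, 24 and 32 without the same libraries.

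The replicate numbers mark nothing shared in the labels, and the replicate differences of the 2 groups correlated across genes at 0.199. With the number as a replicate block limma called 6 genes, the 5 among them, 354 for the interaction with L4, 187 for the F-test and 0 for the other 2 interactions.

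The list medians kept their sign in every setting except those of L3 over dauer, males, later embryos and direct over post-dauer L3. That of direct over post-dauer L3 was -0.02 when the first young adult library was left out, and -0.10 without replicate 1 of both groups. The median of silent genes reached 0 in the latter setting. Taken relative to the median of all genes, the lists of silent genes, dauer over L3 and direct over post-dauer L4 also changed sign. Their relative values were 0.60, 1.12 and 0.87 in the main setting and -0.085, -0.049 and -0.307 at the lowest. That of post-dauer over direct mature adults went from 0.89 to 0.022 at the lowest.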
